A study of Mus musculus with 6 samples.

Results

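Retinoic acid is made from retinol by way of retinaldehyde, and its local level is set by enzymes that act on retinol, retinaldehyde and retinoic acid itself. The expression of 9 such enzymes was examined in 13.5 dpc (days post coitum) mouse ovaries: the retinaldehyde dehydrogenases Aldh1a1, Aldh1a2 and Aldh1a3, the retinol and retinaldehyde oxidoreductases Rdh10, Rdh11 and Dhrs3, and the retinoic acid hydroxylases Cyp26a1, Cyp26b1 and Cyp26c1. They were found by matching their symbols to the gene identifiers of the count table, where all 9 had a row among 48709 genes. Wild type CD1 mothers received either ethanol as the diluent (3 control libraries) or acetaminophen (APAP, 30 mg/kg/day) together with ibuprofen (IBU, 15 mg/kg/day) by gavage from 10.5 to 13.5 dpc (3 APAP+IBU libraries), with 4 gavages per day. Each library was made from polyadenylated RNA of its own pool of fetal gonads, so that values are those of pools and not of single embryos. The comparison asks whether exposure to both drugs during sex determination was accompanied by a difference in the RNA of these enzymes.

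In the fetal gonad, RDH10 oxidises retinol to retinaldehyde, DHRS3 reduces retinaldehyde back to retinol, and the ALDH1A enzymes oxidise retinaldehyde to retinoic acid irreversibly. The CYP26 enzymes break retinoic acid down. Retinoic acid is known as an inducer of Stra8 in germ cells, and CYP26B1 of fetal testis somatic cells is known for keeping male germ cells from this signal, while germ cells of the ovary enter meiosis at this stage.

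Total counts ran from 37811968 to 48954631 per library. Germ cell markers (7 of 7 tested) summed to between 881 and 1184 CPM (counts scaled to library size with TMM factors), and pre-granulosa markers (8 of 8) to between 824 and 1098 CPM, so that the markers of fetal ovary were present in every library. The replicate 3 library of each group stood apart in 13 liver genes, which summed to 1961 and 3176 CPM there against 192 to 545 CPM in the other 4 libraries. Markers of mesonephric tubule and duct (7 of 7 tested) summed to 194 to 230 CPM over the 6 libraries. Most of this sum was Emx2, at 124 to 177 CPM, so its narrow range says little about the other markers. Cdh16 had 24.3, 38.7 and 39.3 CPM in control replicates 1, 2 and 3, and 41.2, 17.3 and 50.2 CPM in those of APAP+IBU. Since ovaries were measured as whole pools, fewer cells of a type and less RNA per cell cannot be told apart. Results are given for all 6 libraries and without both replicate 3 libraries.

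With all 6 libraries, the quasi-likelihood test of edgeR called no member at an adjusted p under 0.05. It likewise called 0 of 20167 genes tested (0%), while the unadjusted p was under 0.05 for 1254 genes. Without shrinkage DESeq2 called 236 genes and with its beta prior 184 genes, none of them a member. Of the 9 members, 8 passed the expression filter, and 7 of these 8 had a negative and 1 a positive log2 fold change in APAP+IBU ovaries compared with controls. Their median was -0.23, against -0.0047 over all genes tested. One member, Cyp26b1, had an unadjusted p under 0.05, where this held for 6.22% of all genes tested, and for 3.21% with a lower value. Both Cyp26b1 and Aldh1a2 lay lower in all exposed than in all control libraries. Of all genes tested, 5.92% were without overlap and lower, 4.78% without overlap and higher, and 10.7% either.

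**Figure D1:**
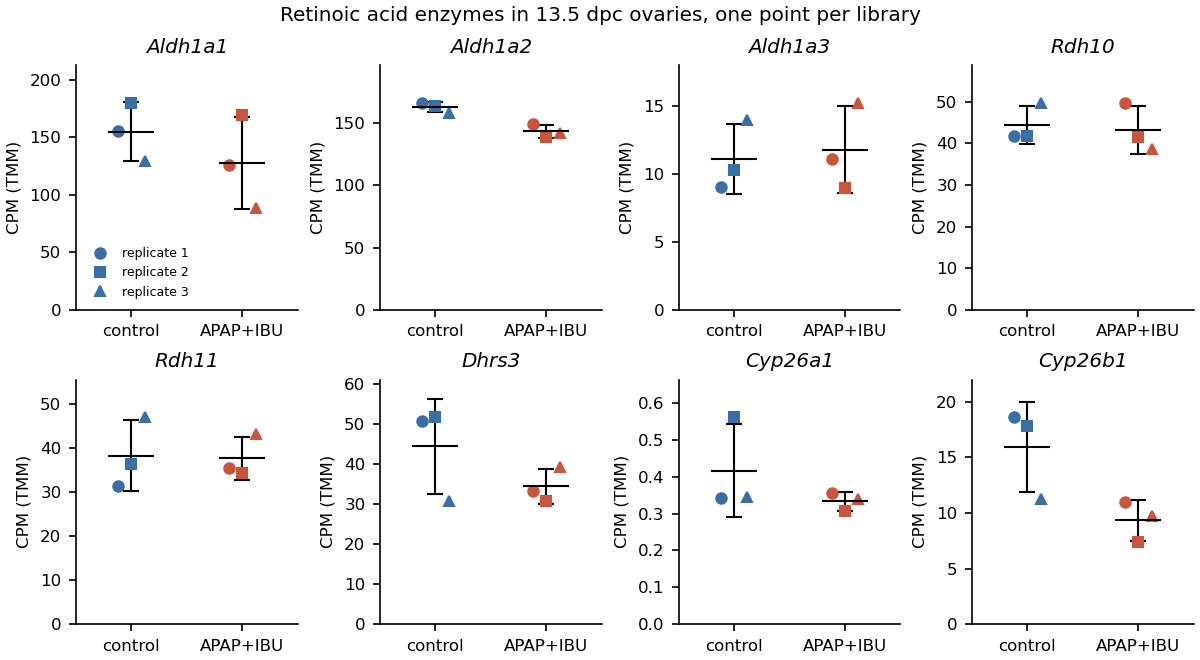
CPM of 8 enzymes (y axes, from 0) in control (blue) and APAP+IBU (red) ovaries, with 1 point per library, the point shape giving the replicate number and the bars the mean and SD of 3 libraries. The groups do not overlap for Aldh1a2 and Cyp26b1, and they overlap for the other 6 genes.

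Per length of exon, the synthesis enzymes Aldh1a2 and Aldh1a1 were the most abundant members, while Aldh1a3 was at the level of Cyp26b1. Levels between genes are given as FPKM, the CPM divided by the summed exon length in kilobases. Aldh1a2 was at 61.2 to 73.6 FPKM and Aldh1a1 at 17.97 to 36.5 FPKM over the 6 libraries. Dhrs3 (10.5 to 17.7 FPKM), Rdh11 (9.09 to 13.6 FPKM) and Rdh10 (9.30 to 12.0 FPKM) followed, and these 3 levels did not differ beyond their spread. Aldh1a3 (1.94 to 3.30 FPKM) and Cyp26b1 (1.37 to 3.48 FPKM) also overlapped. Cyp26a1 was at 0.154 to 0.284 FPKM, below Cyp26b1 in 6 of 6 libraries. The distance between Aldh1a2 and Aldh1a1 depended on the gene model, and Aldh1a2 had the higher mean with either. The exons of Aldh1a1 in GENCODE add up to 4937 bp, against 2358 bp in its principal transcript, and with the latter length, chosen after seeing the data, the mean level of Aldh1a1 was 59.9 FPKM, against 67.6 FPKM for Aldh1a2, with overlapping ranges and Aldh1a2 above in 4 of 6 libraries.

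**Figure D2:**
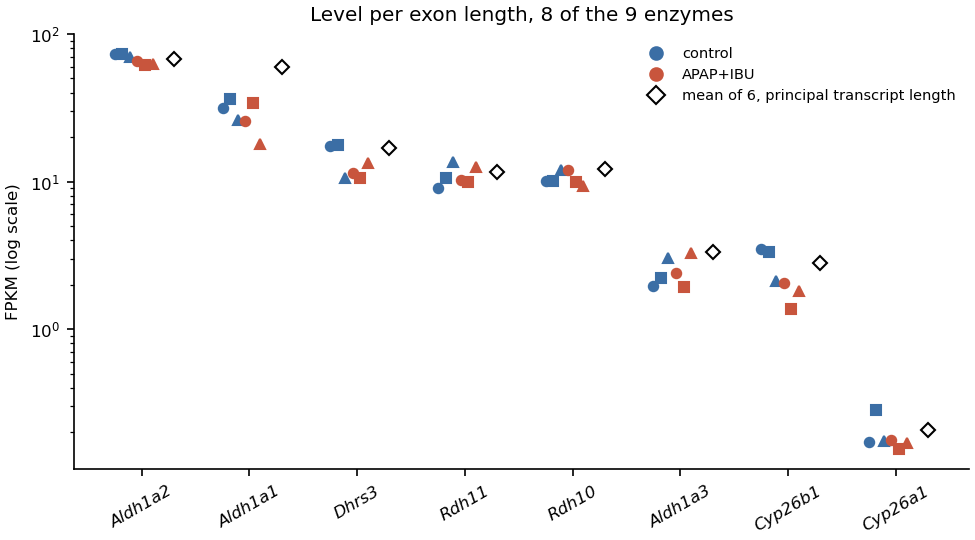
FPKM (log axis) of 8 enzymes in each library, control in blue and APAP+IBU in red, point shapes as replicate numbers, and open diamonds for the mean of 6 libraries when the principal transcript gives the length. Aldh1a2 and Aldh1a1 lead, and the diamond of Aldh1a1 stands at 59.9 FPKM, near that of Aldh1a2.

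Aldh1a2 (ENSMUSG00000013584, chromosome 9 of GRCm38 from 71215789 to 71296243), which encodes the main retinoic acid-forming enzyme of the early embryo, had 167, 164 and 158 CPM in control replicates 1, 2 and 3. In APAP+IBU replicates 1, 2 and 3 it had 149, 138 and 142 CPM. All exposed libraries thus lay below all control libraries, by little: the means were 163 ± 4.29 CPM (SD, n = 3) and 143 ± 5.52 CPM (SD, n = 3). The log2 fold change was -0.18 (standard error, SE, 0.11, edgeR adjusted p = 0.692). The two-sided exact permutation p was 0.1, the smallest that 3 against 3 libraries allow. Without both replicate 3 libraries it was -0.18 (adjusted p = 0.184), and with correction for gene length and GC content in these 4 libraries it was -0.025. Among the marker lists, the sums of spermatid, neuron and macrophage genes also did not overlap between the groups and were lower after exposure. Spermatid genes (7 of 7 tested, none at 0) had 32.3 to 120 CPM in controls and 1.44 to 4.85 CPM after exposure. The part of these lists in the level of Aldh1a2 was not tested.

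Aldh1a1 (ENSMUSG00000053279, chromosome 19 from 20492715 to 20643465), the isozyme known for high expression in adult liver and testis, had 155, 180 and 130 CPM in the controls. It had 126, 169 and 88.7 CPM in the exposed libraries, so that the groups overlapped. The lowest value of each group was that of replicate 3. The log2 fold change of Aldh1a1 was -0.28 (SE 0.24, edgeR adjusted p = 0.722), and -0.17 (adjusted p = 0.427) without both replicate 3 libraries. Aldh1a7, a close paralog whose gene lies near Aldh1a1 on the opposite strand (chromosome 19 from 20692953 to 20727562), had 24.5, 24.4 and 19.6 CPM in controls and 11.6, 28.04 and 11.8 CPM after exposure. Reads that fit both genes may have been dropped in the counting, and levels of this pair are uncertain to that extent. The log2 difference of Aldh1a7 was -0.41 (SE 0.34, edgeR adjusted p = 0.719), and -0.29 (adjusted p = 0.560) without both replicate 3 libraries.

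Aldh1a3 (ENSMUSG00000015134, chromosome 7 from 66390890 to 66427517), the third isozyme, had 8.997, 10.3 and 13.9 CPM in controls and 11.1, 8.97 and 15.2 CPM after exposure. The highest value in each group was again that of replicate 3, where liver genes were also highest, and the part of liver RNA was not tested. Its log2 fold change was 0.086 (SE 0.26, edgeR adjusted p = 0.915), and 0.079 (adjusted p = 0.784) without both replicate 3 libraries. Of the summed FPKM of the 3 isozymes, Aldh1a2 made up 62.9% to 74.7% and Aldh1a3 1.82% to 3.92% in the 6 libraries. The share of Aldh1a1 was 21.4% to 35.1%, and its lowest and highest values were both in exposed libraries (replicates 3 and 2).

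Rdh10 (ENSMUSG00000025921, chromosome 1 from 16105774 to 16133734), the retinol dehydrogenase that embryos need for retinoic acid synthesis, had 41.8, 41.8 and 49.8 CPM in controls. It had 49.8, 41.5 and 38.7 CPM in APAP+IBU libraries, and neither group stood above the other. The log2 fold change was -0.039 (SE 0.15, edgeR adjusted p = 0.935) with 6 libraries and 0.15 (SE 0.12, adjusted p = 0.402) without both replicate 3 libraries. Rdh11 (ENSMUSG00000066441, chromosome 12 from 79174337 to 79192293), a further retinol and retinaldehyde oxidoreductase, had 31.4, 36.3 and 47.1 CPM in controls and 35.5, 34.3 and 43.3 CPM after exposure. Like Aldh1a3, Rdh11 was highest in replicate 3 of each group. Its log2 fold change was -0.023 (SE 0.18, edgeR adjusted p = 0.969), and 0.064 (adjusted p = 0.719) without both replicate 3 libraries.

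Dhrs3 (ENSMUSG00000066026, chromosome 4 from 144892827 to 144928209), which is itself induced by retinoic acid, had 50.8, 51.8 and 30.8 CPM in control replicates 1, 2 and 3. In the exposed libraries it had 33.4, 30.7 and 39.2 CPM. Control replicate 3 thus lay among the exposed libraries, and the groups overlapped. With all 6 libraries the log2 fold change of Dhrs3 was -0.37 (SE 0.22, edgeR adjusted p = 0.692, exact permutation p = 0.3). Without both replicate 3 libraries it was -0.66 (SE 0.11, adjusted p = 0.00758), and with the length and GC correction of these 4 libraries -0.50 (SE 0.098, adjusted p = 0.0198). Leaving out control replicate 3 alone gave -0.58 (adjusted p = 0.04999), while the 5 fits that left out another library gave -0.50 to -0.25 (adjusted p from 0.461 to 0.999), so that this library decided the call. The sum of surface epithelium markers (5 of 5 tested, none at 0) was also higher in control replicates 1 and 2, at 265 and 358 CPM. It was 177 to 209 CPM in control replicate 3 and the exposed libraries. Upk3b, Krt19 and Krt8 followed this sum. Lrrn4 did not, with 25.9, 23.1 and 30.6 CPM in control replicates 1, 2 and 3, and Msln was high in control replicate 2 alone (13.3 CPM). The part of these markers in the values of Dhrs3 was not tested.

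Cyp26b1 (ENSMUSG00000063415, chromosome 6 from 84571414 to 84593908) had the largest difference among the 8 members tested. It had 18.6, 17.8 and 11.3 CPM in control replicates 1, 2 and 3, and 11.0, 7.36 and 9.73 CPM in APAP+IBU replicates 1, 2 and 3. The exposed libraries all lay below the controls, but control replicate 3 was only just above APAP+IBU replicate 1. The means were 15.9 ± 4.04 CPM (SD, n = 3) and 9.36 ± 1.84 CPM (SD, n = 3), and the fitted ratio was 0.589. The log2 fold change of Cyp26b1 was -0.76 (SE 0.25, unadjusted p = 0.0152, edgeR adjusted p = 0.692), and the exact permutation p was 0.1. It was negative in each of the 20 alternative fits, from -0.97 to -0.59. These fits reuse the same libraries, whose groups did not overlap, so the constant sign adds no support.

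Without both replicate 3 libraries, Cyp26b1 had a log2 fold change of -0.97 (SE 0.21, edgeR adjusted p = 0.0180), and -0.83 (adjusted p = 0.0384) after correction for length and GC content. In the fit that left out control replicate 3 alone it was -0.96 (adjusted p = 0.0442), and in the 5 fits that left out another library it was -0.90 to -0.63 (adjusted p from 0.420 to 0.999). Cyp26b1 and Dhrs3 were then the members called, both lower, which was 2 of the 8 tested. In the 4 libraries of replicates 1 and 2, 27.2% of all 20633 genes tested were called (12.9% lower and 14.2% higher), and the members' count was near this background. There 3 members lay lower without overlap, beside 35.5% of all genes lower, 33.3% higher and 68.8% in either direction. With the length and GC correction 13.1% were called, and without control replicate 3 alone 5.16%.

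Sertoli cell markers (Sox9, Amh, Dhh and Ptgds, 4 of 4 tested, none at 0) were, like Cyp26b1, lowest in replicate 3 among the controls. Control replicate 1 was above replicate 2 for Ptgds, as for Cyp26b1, but below it for Sox9, Amh and Dhh. The Sertoli markers summed to 19.0, 18.9 and 8.61 CPM in control replicates 1, 2 and 3 and to 9.44, 9.06 and 8.41 CPM after exposure. Fetal Sertoli cells are known to express Cyp26b1, and the part of these cells in its level was not tested. Neuron markers (4 of 4 tested) summed to 16.5 to 27.4 CPM in controls and 7.77 to 15.4 CPM after exposure, and macrophage markers (5 of 5 tested) to 78.6 to 90.5 CPM and 59.2 to 77.8 CPM.

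**Figure D3:**
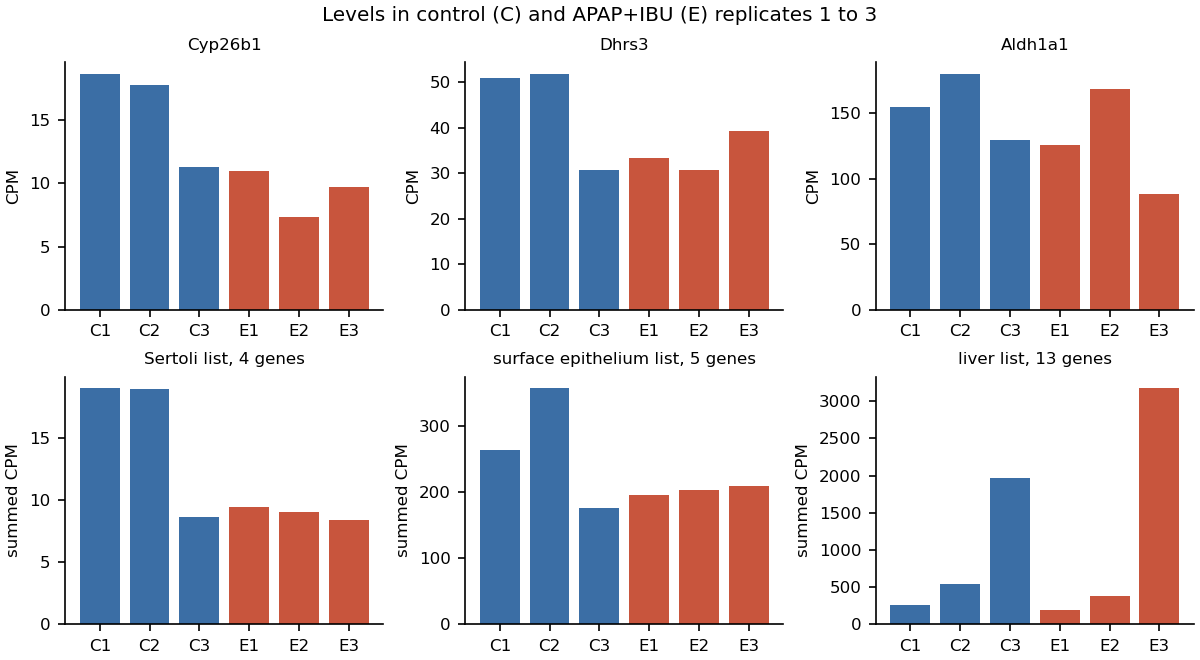
CPM of Cyp26b1, Dhrs3 and Aldh1a1 (top) and summed CPM of the Sertoli, surface epithelium and liver lists (bottom) in control (C, blue) and APAP+IBU (E, red) replicates 1 to 3, y axes from 0. Control replicates 1 and 2 are highest for Cyp26b1, Dhrs3 and the Sertoli and surface epithelium lists, and replicate 3 of each group is highest for the liver list.

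Cyp26a1 (ENSMUSG00000024987, chromosome 19 from 37697798 to 37701536), a classical retinoic acid-induced gene, was near the limit of detection with 13 to 21 reads per library. It had 0.341, 0.562 and 0.345 CPM in controls and 0.355, 0.306 and 0.338 CPM after exposure, and 5 of the 6 libraries lay within 0.306 to 0.355 CPM. The log2 fold change was -0.32 (SE 0.39, edgeR adjusted p = 0.788) and -0.42 (adjusted p = 0.577) without both replicate 3 libraries. Cyp26c1 (ENSMUSG00000062432, chromosome 19 from 37685581 to 37693398), its neighbour on the chromosome, had 1 read in APAP+IBU replicate 3 and 0 reads in the other libraries. Counts of 0 allow a level of up to 0.0591 to 0.0803 CPM per library (3 reads, counting error only), and Cyp26c1 was not tested. Cyp26b1 made up 89.9% to 95.3% of the summed FPKM of the Cyp26 genes.

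**Figure D4:**
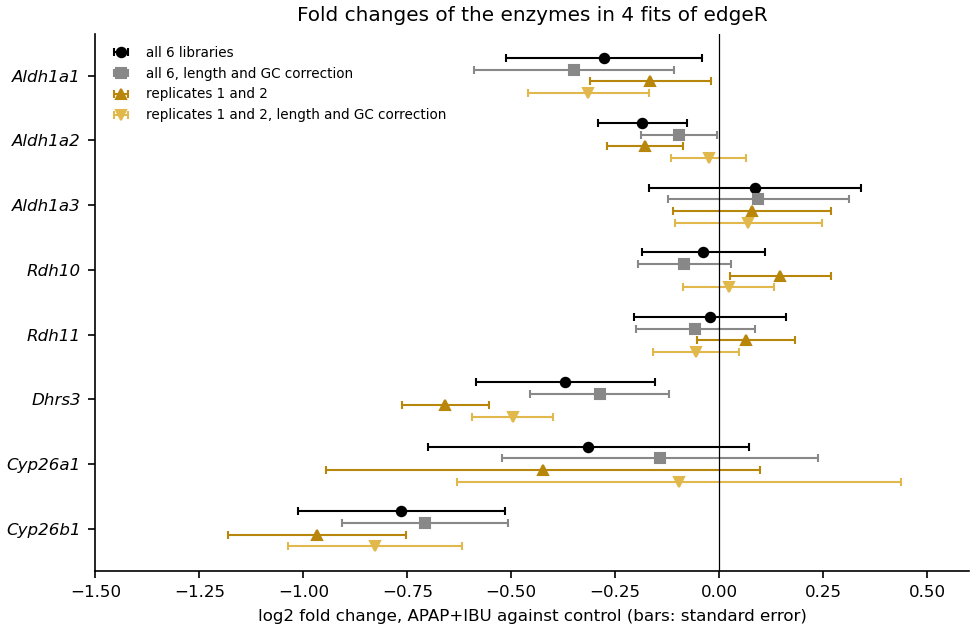
Log2 fold change of APAP+IBU against control ovaries (x axis) with its standard error for 8 enzymes in 4 fits of edgeR: all 6 libraries or replicates 1 and 2 of each group, each with and without correction for gene length and GC content. Cyp26b1 is farthest from 0 in all 4 fits, from -0.97 to -0.71, Dhrs3 lies from -0.66 to -0.29, and Rdh10 and Rdh11 lie on both sides of 0.

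Promoter sequences of RefSeq on GRCm38.p6 matched 7 of the 9 symbols, in 11 windows of 250 bases before to 50 bases after a gene start, and Aldh1a3 and Rdh10 had no entry. They were searched on both strands for the half-site AGGTCA or its variants AGTTCA, as well as GGGTCA, and lastly GGTTCA, in direct repeat, with 1, 2 or 5 bases between them, since retinoic acid receptors are known to bind such repeats. With 5 bases (DR5), 32 of 32851 windows of all genes held a match (0.0974%), and the window of Cyp26a1 was the only one among the members. With 1 base 0.222% and with 2 bases 0.268% of all windows matched, and no member window did. Shown are the upstream bases of Cyp26a1 (chr19:37697558-37697797, plus strand), which holds the DR5, and those of the members with the largest differences, Cyp26b1 (chr6:84593909-84594060, minus strand) and Dhrs3 (chr4:144892577-144892826, plus strand), each 5′ to 3′ on the strand of the gene, without bases that GENCODE places in an exon, and with the DR5 in capitals.
Cyp26a1: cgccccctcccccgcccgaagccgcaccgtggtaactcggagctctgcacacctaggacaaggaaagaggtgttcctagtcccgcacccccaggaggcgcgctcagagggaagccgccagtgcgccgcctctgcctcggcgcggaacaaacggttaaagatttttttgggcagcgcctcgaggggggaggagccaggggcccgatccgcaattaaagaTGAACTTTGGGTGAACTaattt
Cyp26b1: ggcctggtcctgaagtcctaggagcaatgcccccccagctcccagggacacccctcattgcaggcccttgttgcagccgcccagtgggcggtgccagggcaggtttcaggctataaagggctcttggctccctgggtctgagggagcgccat
Dhrs3: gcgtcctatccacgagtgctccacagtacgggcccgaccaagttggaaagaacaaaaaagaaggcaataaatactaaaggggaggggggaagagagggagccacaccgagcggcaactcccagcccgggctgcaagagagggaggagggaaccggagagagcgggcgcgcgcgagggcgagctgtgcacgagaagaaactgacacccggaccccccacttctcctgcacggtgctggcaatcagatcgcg
Read on the opposite strand, the DR5 of Cyp26a1 is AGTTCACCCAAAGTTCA, and it lies on chromosome 19 from 37697776 to 37697792, from 32 to 16 bases before the RefSeq gene start, which lies downstream of the GENCODE start given above. Of the retinoic acid target genes listed here, Rarb also had a DR5, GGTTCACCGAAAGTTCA, on chromosome 14 from 16575513 to 16575529. The absence of a match in the windows of Cyp26b1 and Dhrs3 says only that these letters were not in them.

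Other retinoid genes had mostly negative fold changes, without a call. In a list of 41 genes for further retinoid enzymes, binding and uptake proteins and receptors, 32 were tested with all 6 libraries, and 24 had a negative and 8 a positive log2 fold change. Their median was -0.18, edgeR called 0, and 1 had an unadjusted p under 0.05. All 6 receptor genes had a negative value, with a median of -0.28. In a list of 15 retinoic acid target genes, 13 of the 14 tested had a negative value, with a median of -0.27 and 0 calls, and 1 had an unadjusted p under 0.05. DESeq2 called none in either list. The gene with the unadjusted p under 0.05 was in both cases Crabp2.

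Crabp2, which delivers retinoic acid to its receptors, had 23.7, 20.0 and 17.3 CPM in controls and 13.6, 12.9 and 17.6 CPM after exposure. Its log2 fold change was -0.47 (SE 0.19, unadjusted p = 0.0421, edgeR adjusted p = 0.692), and -0.70 (adjusted p = 0.0154) without both replicate 3 libraries. With the length and GC correction in these 4 libraries Crabp2 was at -0.39 (adjusted p = 0.0975). Crabp1, a binding protein known for sequestering retinoic acid in the cytosol, had 46.7, 36.8 and 20.6 CPM in controls and 18.1, 23.2 and 25.2 CPM after exposure. As for Dhrs3, control replicate 3 lay among the exposed libraries, and the log2 fold change was -0.65 (SE 0.29, adjusted p = 0.692).

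Of the target genes, Stra8 had a log2 fold change of -0.42 and Rec8 one of -0.41, both with an adjusted p of 0.692 in edgeR's test. Stra8 was at 333, 319 and 208 CPM in control replicates 1, 2 and 3 and at 212, 274 and 156 CPM after exposure. Rec8 was at 227, 188 and 118 CPM in controls and at 130, 135 and 136 CPM after exposure. Without both replicate 3 libraries the log2 fold change was -0.41 for Stra8 (adjusted p = 0.0495) and -0.63 for Rec8 (adjusted p = 0.00945). With the length and GC correction there it was -0.17 for Stra8 (adjusted p = 0.412) and -0.30 for Rec8 (adjusted p = 0.0845), and neither was called. Rarb, the receptor gene with the DR5 above, had 11.9, 16.1 and 18.1 CPM in controls and 15.4, 9.17 and 14.003 CPM after exposure, and its groups overlapped (log2 fold change -0.26, adjusted p = 0.750, and -0.16, adjusted p = 0.692, without both replicate 3 libraries). Without both replicate 3 libraries, 6 of 31 other retinoid genes were called, 1 higher and 5 lower, and 4 of 14 target genes, 1 higher and 3 lower, beside the 27.2% of all genes called there. Crabp2 is on both lists and is counted among the genes called lower in each. The genes called higher were Bco2, a carotenoid-cleaving enzyme, and Nrip1, a nuclear receptor corepressor, and both were singled out after their values were seen. With the length and GC correction neither was called, as Bco2 went from 1.36 to 1.39 (adjusted p = 0.0521) and Nrip1 from 0.54 to 0.079 (adjusted p = 0.599). The correction added calls for other listed genes, beside 13.1% of all genes called. Meis1 went from -0.040 to -0.52 (edgeR adjusted p = 0.0365) and Meis2 from -0.073 to -0.55 (adjusted p = 0.0356). Dgat1 went from 0.19 to 0.50 (adjusted p = 0.0275). Fabp5 was called lower without and with the correction, at -0.83 and -0.84 (adjusted p = 0.0237 and 0.0312). Crabp1 was among those called lower in these 4 libraries (log2 fold change -0.998, adjusted p = 0.00821), and with the length and GC correction its value was -0.38 (adjusted p = 0.0827).

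**Figure D5:**
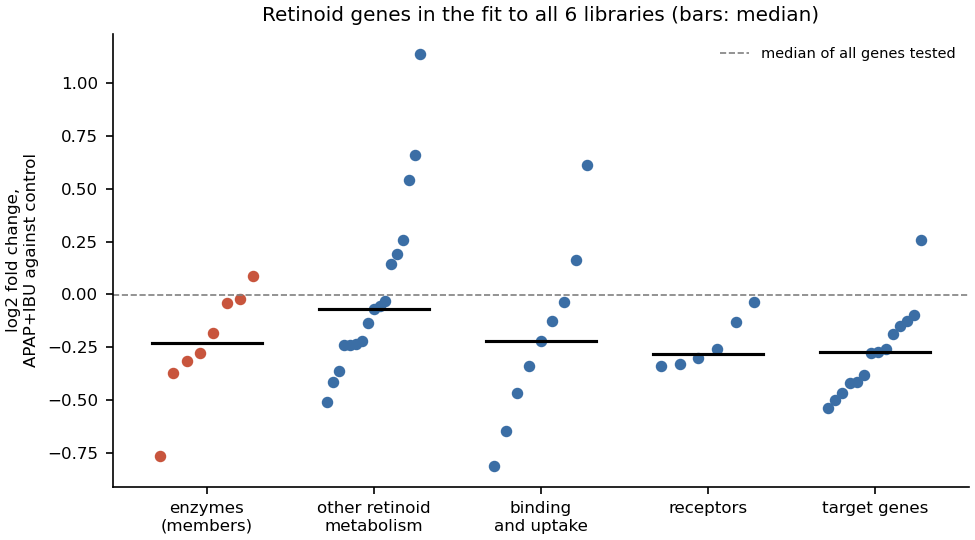
Log2 fold change of APAP+IBU against control ovaries (y axis) in the fit to all 6 libraries, with 1 point per gene tested, for the 8 enzymes tested (red) and 4 groups of other retinoid genes (blue), black bars for the median of each group and a dashed line for the median of all genes tested. The median of the enzymes is -0.23 and that of the receptors -0.28, and the lowest enzyme is Cyp26b1 at -0.76.

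Over the 6 libraries, the tested genes whose log2 CPM was most like that of Cyp26b1 were Gstm2-ps1, Foxc2, Fxyd6, Spcs2-ps and Meaf6, with Pearson's r from 0.981 to 0.990. For Dhrs3 they were Cdk5r2, Slc25a29, Nbl1, Mettl1 and Sod3, with r from 0.995 to 0.999. For Aldh1a2 they were 1700016H13Rik, Tnp1, Fbxo44, Tex48 and Fsip2, with r from 0.989 to 0.996. These values describe 6 points that share libraries and groups, and they were picked as the highest among 20167 genes.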

How the data were processed

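RNA-seq libraries of 3 control and 3 APAP+IBU pools were used. Per the submitters' processing notes, the authors mapped reads onto mm10 with TopHat2 2.0.14 and Bowtie2 2.1.0, counted them per Ensembl gene with HTSeq 0.6.1, and deposited raw counts without normalisation, and the strand setting of the counting is not given in the sources used here. Groups came from the exposure label, since the titles of exposed samples name IBU alone. The members and lists were chosen with earlier results of these data known.

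From these counts, edgeR 4.0.16 (R 4.3.3) was run on 20167 genes that passed filterByExpr, with TMM normalisation, glmQLFTest and Benjamini-Hochberg adjustment over all of them. Log2 CPM used a prior count of 1. With 3 libraries per group the p-values measure the spread between pools. Named genes are all 9 members, listed genes called or with an unadjusted p under 0.05, Stra8, Rec8, Aldh1a7, Crabp1, Crabp2 and Rarb (1 further gene of this rule is not reported here), and, for the most abundant member of each class, the 5 genes of most similar pattern. GENCODE M21 gave positions, exon lengths and GC content (GRCm38, the assembly of mm10). In it no exon of a member shares bases with an exon of another gene. The gene spans of Aldh1a1 and Aldh1a2 overlap other genes on the opposite strand. The length and GC correction was a loess fit with a span of 0.3 per library. DESeq2 1.42.0, other normalisations and filters, a replicate block, a liver covariate and fits without single libraries or both replicate 3 libraries served as alternatives. Pairs of libraries of one group differed beyond sampling noise (chi-square statistic of 17.2 to 143 for each degree of freedom). The main edgeR test and DESeq2 without shrinkage were tried on simulated counts, and the outcome is not reported here. The exact permutation test, the length and GC correction and the other alternatives were not tried in this way.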

Additional observations from a re-analysis of the deposited data

How the results depend on the processing

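Members with all 6 libraries were called by none of the alternatives of normalisation, filter, tool, block, correction or covariate. With replicates 1 and 2 only, 2 members were called, the same number when length and GC were corrected and in DESeq2 (beta prior), and 0 to 2 when one library was left out. Among all genes, 0 calls became 120 with all genes of at least 1 count, 236 in DESeq2 without shrinkage, 184 in DESeq2 (beta prior), 2 with the replicate block, 34 with the block and the length and GC correction, and with replicates 1 and 2 only 5607, 2709 with the correction and 5701 with DESeq2. With one library left out they ran from 0 to 1064, the highest without control replicate 3. Other retinoid genes called were 6, 2 and 9 in the 3 fits to replicates 1 and 2, and 0 to 1 with one library left out. Target genes called were 4, 2 and 5 there, and 0 to 2. These counts, and those of the members, stand beside 27.2%, 13.1% and 28% of all genes called in the 3 fits to replicates 1 and 2. With one library left out, 0% to 5.16% of all genes were called. In the edgeR fits to replicates 1 and 2, 8 members, 31 other retinoid genes and 14 target genes were tested. The cause of these shifts was not tested. Aldh1a1, Aldh1a2, Dhrs3, Cyp26a1 and Cyp26b1 kept their sign in all 20 alternatives, but not their size. For Aldh1a2 and Cyp26b1 the groups did not overlap, so leaving libraries out could hardly have changed the sign. Rdh10 turned to 0.15, 0.022 and 0.14 in the 3 fits to replicates 1 and 2, and Rdh11 to 0.0080 with total counts and to 0.064 and 0.056 with replicates 1 and 2 in edgeR and DESeq2. With one library left out, Aldh1a1 ran from -0.54 (without APAP+IBU replicate 2) to -0.095 (without APAP+IBU replicate 3), Cyp26a1 from -0.44 (without control replicate 1) to -0.043 (without control replicate 2), Dhrs3 from -0.58 (without control replicate 3) to -0.25 (without control replicate 2), Aldh1a3 from -0.17 to 0.29, Rdh10 from -0.16 to 0.051 and Rdh11 from -0.16 to 0.16. Deviations from the group mean correlated at -0.07, -0.02 and -0.04 between libraries of the same replicate number, with no library closest to its own number. With 3 libraries per group this cannot show whether pools of one number belonged together. The replicate block called no member. The principal transcript length, chosen after seeing the data, moved the mean share of Aldh1a1 from 28.7% to 45.3% and that of Aldh1a2 from 68.7% to 52.1%. Few reads limit Cyp26a1 and Cyp26c1.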
